A study of Mus musculus with 10 samples.

Results

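The mitochondrial ribosomal protein genes are the nuclear genes for the proteins of the ribosome inside mitochondria. They were taken as all gene probes of the array whose RefSeq accession maps to a symbol of the form Mrpl or Mrps followed by a number, which gave 78 of the 19752 named genes. Of these, 49 carry the large subunit prefix Mrpl and 29 the small subunit prefix Mrps. Together they had 98 probes, with 58 genes on 1 probe and 20 genes on 2, and the brightest probe stood for each gene. No probe matched any of the 6 pseudogenes of members that the reference table lists.

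The mitochondrial ribosome translates the few messages of mitochondrial DNA, all of which encode subunits of the oxidative phosphorylation complexes. Its ribosomal RNAs come from mitochondrial DNA, while its proteins are made in the cytosol and imported, so that assembly needs both genomes. Some of the proteins have bacterial counterparts, and others are found only in mitochondria. By a rule on the number in the symbol, 46 members were counted as having a bacterial counterpart and 32 as specific to mitochondria. The rule is approximate, since Mrpl47, which is related to a bacterial protein, fell among the 32. The symbols do not map onto the subunits without exception. Mrps18a and Mrps30 sit in the large subunit in structures of the mammalian ribosome, and Mrps36 has been reassigned to the 2-oxoglutarate dehydrogenase complex.

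Transcript levels were measured on 10 single-colour Agilent arrays in 5 groups of 2. The muscle groups came from male C57BL/6J mice and comprised hSA::Fv2E-PERK transgenic mice injected with AP20187 at 1 ng/g, hSA::Fv2E-PERK mice injected with vehicle, and wild type mice that had no injection. The cell groups comprised C2C12 cells carrying Fv2E-PERK given AP20187 at 100 nM and the same cells given the ethanol vehicle, after growth in 10% fetal bovine serum and 3 days in 2% horse serum. Injected mice and treated cells were sampled at 12 h. Fv2E-PERK joins the kinase domain of PERK, which phosphorylates eIF2alpha, to a module that AP20187 brings together in pairs, and hSA denotes a skeletal actin promoter, which is known to be active in muscle fibres. C2C12 myoblasts, an established mouse line, fuse into myotubes once serum is lowered. The labels do not say whether the line used is 1 clone, how old the mice were, or which muscle was taken.

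The wild type arrays were scanned in a session of their own, the 4 transgenic arrays in another and the C2C12 arrays in one more. Genotype, injection and scan session therefore cannot be told apart in any comparison with wild type, nor system and session between muscle and C2C12. Between 41.0% and 53.1% of gene spots were well above background on each array. Of 9 skeletal muscle fibre markers (Acta1, Ckm and Myh4 among them), all 9 were well above background in each muscle group, and the mean log2 level of the 8 measured everywhere ranged from 9.01 to 9.24 in AP20187 muscle, from 9.31 to 9.41 in vehicle muscle and from 9.13 to 9.35 in wild type muscle. In C2C12 it ranged from 2.40 to 2.58 after AP20187 and from 3.25 to 3.44 after vehicle, with Myh2 not above background on both AP20187 arrays. Whole-tissue and whole-culture RNA was measured, in which fewer cells of a type and less RNA per cell cannot be told apart. The labels do not say that the 2 samples of a group came from separate mice or cultures, and p-values measure only the spread between these samples, which may be technical.

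Levels are given as log2 of the background-subtracted spot intensity minus the 75th percentile of the same array, so 0 is that percentile and 1 unit is a doubling. Of the 78 members, 76 were well above background on all 10 arrays. Mrpl21 was above background on none and entered no test. Mrpl35 was above background on the 6 muscle arrays and on no C2C12 array. Outlier marks of the scanner software removed the value of 13 members on at least 1 C2C12 AP20187 array and of 7 members on both, and 65 members had a value on every array.

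Expression of the members as a group was highest in vehicle muscle of the transgenic mice and lowest in C2C12. Relative to each gene's mean over the 10 arrays, the median was taken over the 64 members measured on all arrays, Mrpl21 left out. It was 0.39 and 0.42 on the AP20187 muscle arrays, 0.58 and 0.69 on the vehicle muscle arrays, and 0.03 and 0.05 on the wild type arrays. It was -0.59 and -0.48 on the C2C12 AP20187 arrays and -0.54 and -0.50 on the C2C12 vehicle arrays. The medians of the muscle groups did not overlap, whereas those of the C2C12 groups did. Of 69 members above background on all arrays and with a mean in every group, 56 were highest in vehicle muscle, 9 in AP20187 muscle, 1 in wild type muscle, 1 in C2C12 after AP20187 and 2 in C2C12 after vehicle. The lowest mean was in C2C12 after AP20187 for 34 members, in C2C12 after vehicle for 21, in wild type muscle for 11 and in AP20187 muscle for 3.

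Large and small subunit genes followed the same course. In vehicle muscle the median deviation was 0.56 and 0.70 for the large subunit and 0.58 and 0.69 for the small subunit, against -0.02 and 0.03 (large) and 0.04 and 0.07 (small) in wild type muscle. The widest gap between the subunits was on C2C12 AP20187 replicate 2, at -0.46 for the large and -0.61 for the small. No test was made between the subunits, because genes of a list are not replicates. Cytosolic ribosomal protein genes, measured the same way over 60 genes, were at 0.19 and 0.44 in vehicle muscle and at -0.57 and -0.61 in wild type muscle, and at 0.04 and 0.24 in C2C12 after vehicle. Nuclear oxidative phosphorylation genes, over 48 genes, were at 0.91 and 1.15 in vehicle muscle, at 0.62 and 0.70 in wild type muscle and at -1.12 on both C2C12 vehicle arrays.

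**Figure D1:**
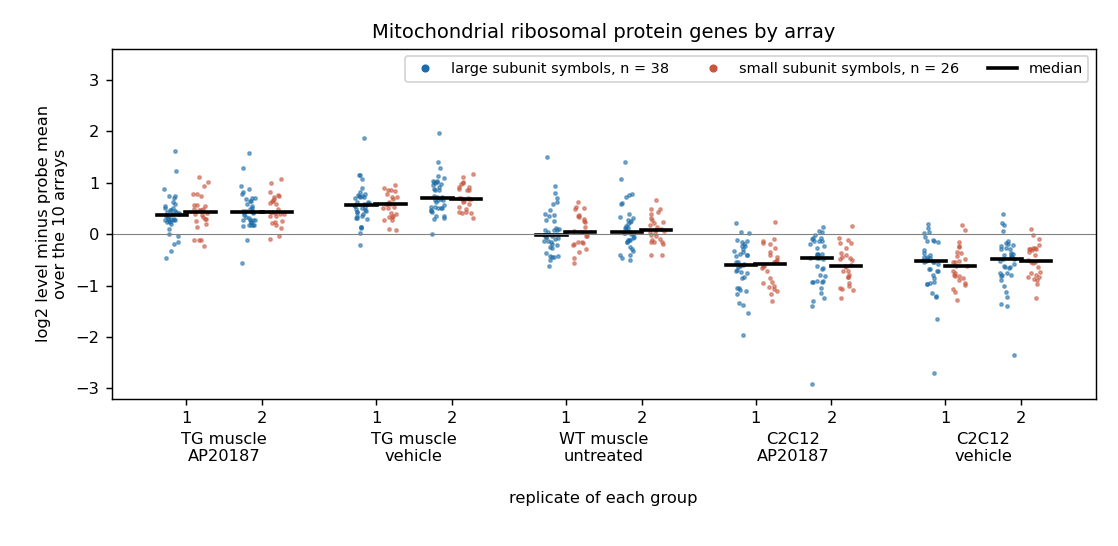
Each point is 1 of 64 members (38 large and 26 small subunit symbols) on 1 array, as its log2 level minus its mean over the 10 arrays, with the 2 replicates of each group side by side and black bars for medians. Medians are highest on the vehicle muscle arrays (0.56 to 0.70), lower on AP20187 and wild type muscle arrays, and below -0.4 on all C2C12 arrays. The lowest large subunit points in C2C12 are Mrpl35, which is not above background there.

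The first comparison asked how vehicle-treated transgenic muscle differed from wild type muscle. Of 77 members tested, 61 were higher in the transgenic vehicle muscle and 0 were lower (limma, Benjamini-Hochberg adjusted p under 0.05 over all 13543 genes tested). Over all genes tested, 25.7% were called higher and 12.6% lower, 38.3% in all. At an unadjusted p under 0.05 the counts were 64 higher and 0 lower, to which the shares above, taken at adjusted p, do not apply. The median log2 change of the members was 0.58, against 0.09 over all genes tested, and their changes ranged from -0.07 to 1.07. The large subunit had 37 of 48 members higher with a median of 0.58, and the small subunit had 24 of 29 higher with a median of 0.57. Members counted as having a bacterial counterpart (36 of 45 higher, median 0.59) and those counted as specific to mitochondria (25 of 32 higher, median 0.55) gave similar figures.

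Mrpl44, a member of the RNase III family at the edge of the large subunit, showed the smallest p. Its log2 level was 3.76 and 3.90 in vehicle muscle, against 2.74 and 2.78 in wild type muscle, a log2 change of 1.07 (SE 0.09, 2.10-fold, limma adjusted p 0.000257). The groups did not overlap. Mrpl24, related to bacterial L24, which binds ribosomal RNA early in assembly, stood at 5.29 and 5.49 in vehicle muscle and at 4.35 and 4.36 in wild type muscle (log2 change 1.03, SE 0.10, limma adjusted p 0.000408). Mrps30, a large subunit protein despite its symbol, stood at 4.70 and 4.87 in vehicle muscle and at 3.84 and 3.89 in wild type muscle (log2 change 0.92, SE 0.09, limma adjusted p 0.00049). For each of these the difference between the groups was larger than that between replicates. Mrpl47, related to bacterial L29 near the exit of the peptide tunnel, stood at 4.09 and 4.22 in vehicle muscle and at 3.14 and 3.16 in wild type muscle (log2 change 1.00, SE 0.11). Mrps17, a small subunit protein of bacterial descent, rose by 0.82 (SE 0.09) and Mrpl3, at the base of the peptidyl transferase centre, by 0.82 (SE 0.09), and both passed the same threshold.

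The other 16 members were not called in vehicle against wild type muscle. They ran from -0.07 (Mrpl18) to 0.34 (Mrpl33) and included Mrpl42 (0.00), Mrps21 (-0.02), Mrpl51 (0.09) and Mrpl34 (0.10), named here after their values were seen. Without vehicle replicate 2 the median change of the members was 0.50, against 0.09 over all genes tested. Without vehicle replicate 1 it was 0.67, against 0.10. With quantile normalization 42 members were higher and 2 lower, where 19.2% of all genes were higher and 17.2% lower. With the percentile over detected probes the median of all genes moved to -0.13 and that of the members to 0.37, with 46 members higher and 0 lower, where 14.8% of all genes were higher and 23.0% lower.

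Injection of AP20187 was next set against vehicle in transgenic muscle. After AP20187, 2 of 77 members were higher and 27 were lower, where 14.3% of all genes tested were called higher and 15.0% lower (29.3% in all). At an unadjusted p under 0.05, 2 were higher and 38 lower. The shares above, taken at adjusted p, do not apply to these counts. No share of all genes was computed at that threshold, so the counts alone say nothing particular to the members. The median log2 change was -0.25 for the members and -0.11 over all genes tested. In the large subunit 1 member was higher and 16 lower of 48 (median -0.27). In the small subunit 1 was higher and 11 lower of 29 (median -0.21), and with Mrps18a and Mrps30 counted as large subunit the medians were -0.26 for the large and -0.24 for the small. Without overlap of the groups, 50 of the 77 tested members were lower and 5 higher after AP20187, where 41.3% of all genes were lower and 27.2% higher in this way.

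The change moved with the arrays used, and the count of 29 called members moved with both the arrays and the scaling. The median change of the members was -0.36 without vehicle replicate 1, against -0.11 over all genes tested. Without vehicle replicate 2 it was -0.17, against -0.10. It was -0.22 without AP20187 replicate 1 (all genes -0.11) and -0.30 without AP20187 replicate 2 (all genes -0.10). Leaving out either wild type array kept it at -0.25, since those arrays enter only through the estimate of spread. Vehicle replicate 2 stood above vehicle replicate 1 by a median of 0.19 over 77 members. By the file headers it was the only transgenic array in row 2 of its slide, so that slide row as a block takes out this same array, with a median change of -0.17 either way. The recorded positions are themselves in doubt, since the headers give 1 slide number to the transgenic and C2C12 arrays of different sessions and the same row and column to vehicle replicate 2 and C2C12 AP20187 replicate 1. With quantile normalization 2 members were higher and 8 lower (all genes 15.3% and 8.87%), and with normexp background likewise 2 and 8 (all genes 15.5% and 9.68%). The comparison shares the vehicle arrays with the preceding comparison, so a high vehicle array enters both with opposite sign.

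Mrpl18, related to the bacterial L18 that binds 5S ribosomal RNA, changed most. Its log2 level was 3.53 and 3.45 after AP20187, against 4.49 and 4.74 after vehicle, and wild type muscle stood at 4.60 and 4.76. The change was -1.12 (SE 0.11), or 2.17-fold lower (limma adjusted p 0.000986), and both AP20187 arrays lay below all 4 other muscle arrays. Mrpl42, a protein found only in mitochondrial ribosomes, stood at 4.39 and 4.43 after AP20187, at 5.01 and 5.23 after vehicle and at 5.04 and 5.19 in wild type muscle. Its change from vehicle was -0.71 (SE 0.11, limma adjusted p 0.00368). Mrpl51, likewise specific to mitochondria, stood at 6.70 and 6.85 after AP20187, at 7.30 and 7.52 after vehicle and at 7.28 and 7.36 in wild type muscle, a change of -0.63 (SE 0.11, limma adjusted p 0.00609). In these 3 genes the AP20187 arrays were the low ones and the vehicle and wild type arrays overlapped. Their calls held under all 19 alternatives of processing and arrays.

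Mrps16, whose loss in humans causes a combined respiratory chain deficiency, gave another pattern. It stood at 5.31 and 5.47 after AP20187, at 5.87 and 6.09 after vehicle and at 4.95 and 5.11 in wild type muscle, so the AP20187 arrays lay between the other groups. Its change from vehicle was -0.59 (SE 0.11, limma adjusted p 0.0094). Mrps18c, a homologue of bacterial S18, stood at 4.17 and 4.25 after AP20187, at 4.62 and 4.93 after vehicle and at 4.14 and 4.27 in wild type muscle, so that only the vehicle arrays stood apart. It changed by -0.56 (SE 0.12, limma adjusted p 0.0137), while its homologues did not pass, with -0.20 (SE 0.09) for Mrps18a and 0.19 (SE 0.11) for Mrps18b. The difference between the homologues was not tested. Mrps36, the 2-oxoglutarate dehydrogenase component, changed by -0.52 (SE 0.10) and Mrpl34, of the bacterial L34 family, by -0.48 (SE 0.10). Without vehicle replicate 2, Mrps16, Mrps36, Mrpl34 and Mrps18c were no longer called, and Mrpl34 and Mrps18c were also lost without AP20187 replicate 1.

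Several members chosen for their known roles followed. Mrpl12, which binds mitochondrial RNA polymerase, stood at 6.49 and 6.60 after AP20187, at 6.78 and 6.92 after vehicle and at 6.15 and 6.12 in wild type muscle, a change of -0.30 (SE 0.09, limma adjusted p 0.0445). That call was lost under 14 of 19 alternatives, among them the omission of any muscle array other than vehicle replicate 1. Mrpl11, part of the stalk base, changed by -0.45 (SE 0.11) and Mrpl13 by -0.46 (SE 0.13), and both were lost without vehicle replicate 2 or without AP20187 replicate 1. Mrpl58, a peptidyl-tRNA hydrolase that rescues stalled ribosomes, missed the threshold at -0.32 (SE 0.10, limma adjusted p 0.051). So did Mrpl45, which holds the tunnel exit to the inner membrane, at -0.27 (SE 0.10, limma adjusted p 0.0658). Mrps12 in the decoding site (-0.19, SE 0.11), Mrps22, a human disease gene (-0.24, SE 0.14), Mrpl41 (-0.18, SE 0.14), Mrps35 (-0.03, SE 0.11) and Mrpl44 (0.04, SE 0.09) were not called either.

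The 2 members called higher after AP20187 were Mrpl9 and Mrps30, both large subunit proteins. Mrpl9 stood at 3.55 and 3.57 after AP20187, against 3.22 and 3.25 after vehicle, with wild type muscle at 2.72 and 2.82 (log2 change 0.33, SE 0.09, limma adjusted p 0.0311). Mrps30 stood at 5.13 and 5.07 after AP20187 and at 4.70 and 4.87 after vehicle, with wild type muscle at 3.84 and 3.89 (log2 change 0.32, SE 0.09, limma adjusted p 0.0406). For both the AP20187 arrays were the highest of the 6, and for both the call was lost on leaving out any 1 of the 6 muscle arrays, with values between 0.23 and 0.43 over all alternatives.

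**Figure D2:**
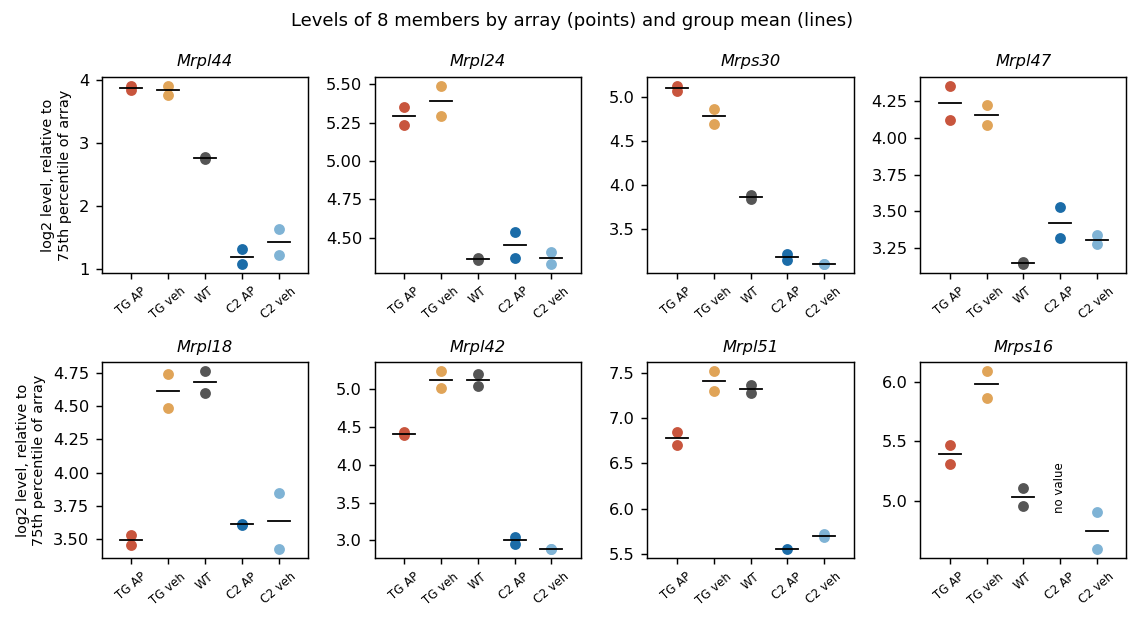
Points are the log2 level on each array relative to its 75th percentile, lines are group means, and groups run from AP20187 and vehicle transgenic muscle and wild type muscle to AP20187 and vehicle C2C12 (C2). Mrpl44, Mrpl24, Mrps30 and Mrpl47 are lowest in wild type among the muscle groups, whereas Mrpl18, Mrpl42 and Mrpl51 are lower after AP20187 than in both other muscle groups; Mrps16 has no value on the C2C12 AP20187 arrays.

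Against wild type muscle, AP20187 muscle had 43 members higher and 5 lower of 77, with 29.6% of all genes called higher and 22.6% lower (52.2% in all). The median log2 change was 0.34, against 0.04 over all genes tested. AP20187 muscle stood between the other groups for most members: 51 of 77 members had group means in the order vehicle, AP20187, wild type. The order was vehicle, wild type, AP20187 for 13 members, AP20187, vehicle, wild type for 11, and wild type, vehicle, AP20187 for 2. The 5 members lower than wild type were Mrpl18 (-1.19, SE 0.11), Mrpl42 (-0.71, SE 0.11), Mrpl51 (-0.54, SE 0.11), Mrps21 (-0.51, SE 0.12) and Mrpl34 (-0.38, SE 0.10). The Mrpl34 call was lost without either wild type array or without AP20187 replicate 1, and the Mrps21 call without wild type replicate 2. Mrps21, a small subunit protein of the bacterial S21 family, stood at 5.82 and 5.97 after AP20187 and at 6.32 and 6.48 in wild type muscle. The members that rose with the smallest p were Mrps30 (1.23, SE 0.09), Mrpl44 (1.11, SE 0.09) and Mrpl47 (1.08, SE 0.11), with Mrpl24 (0.93), Mrps17 (0.92) and Mrpl9 (0.79). With the percentile taken over detected probes, 31 members were higher and 10 lower (median 0.20, all genes -0.10), where 23.0% of all genes were higher and 29.5% lower. With quantile normalization 33 were higher and 9 lower, where 28.2% of all genes were higher and 22.8% lower. Without wild type replicate 1 the median change of the members was 0.32, against 0.05 over all genes tested. Without AP20187 replicate 2 it was 0.31, against 0.04. The comparison shares arrays with both preceding ones.

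**Figure D3:**
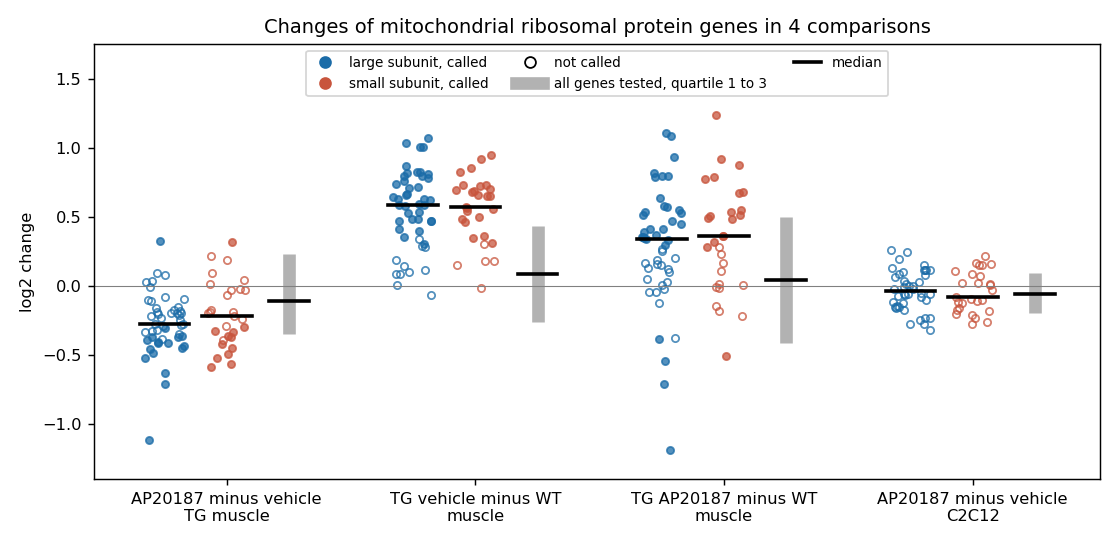
Each point is the log2 change of 1 member in 1 comparison, filled where the adjusted p is under 0.05, with black bars for medians and grey bars from the lower to the upper quartile of all genes tested. Members lie above the median of all genes in both comparisons with wild type muscle, below it for AP20187 against vehicle in muscle (-0.25 against -0.11), and at it in C2C12 (-0.05 against -0.06).

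The genes around the mitochondrial ribosome were counted in the same fits. Over all genes tested in these, 25.7% were higher and 12.6% lower in vehicle against wild type muscle. After AP20187, 14.3% were higher and 15.0% lower than after vehicle. A list of 6 further genes held 5 mitoribosomal proteins that carry other symbols and Oxa1l, an insertase and not a ribosomal protein. All 5 were higher in vehicle than in wild type muscle, led by Gadd45gip1, a large subunit protein (1.05, SE 0.12). After AP20187 1 of them was lower (Aurkaip1, -0.33). Oxa1l was called in neither comparison (-0.24 in vehicle against wild type muscle and 0.14 after AP20187). Among 25 tested factors of assembly and ribosomal RNA modification, 15 were higher and 0 lower in vehicle muscle against wild type, with Tfb1m, a methyltransferase of the small ribosomal RNA, at 0.94 and the assembly GTPase Mtg2 at 0.76. After AP20187, 5 of the 25 were higher (20%) and 3 lower (12%) than after vehicle, not far from the shares over all genes. The RNA methyltransferases Mrm1 (0.98, SE 0.16) and Mrm3 (0.92, SE 0.12), the helicase Dhx30 (0.74, SE 0.09) and Mterf4, a large subunit assembly factor (0.73, SE 0.12), rose. Of 14 mitochondrial translation factors, 1 was higher (the recycling factor Mrrf, 0.38) and 1 lower (the initiation factor Mtif2, -0.32) after AP20187. In vehicle muscle 4 were higher and 1 lower than in wild type, and the 4 (28.6%) are near the share over all genes.

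Of 14 genes for mitochondrial transcription and its nuclear regulators, 5 were higher (35.7%, against 14.3% of all genes) and 0 lower after AP20187 than after vehicle. They were the transcription factors Myc (4.50, SE 0.21) and Nrf1 (0.88, SE 0.11), the coactivator Pprc1 (1.15, SE 0.19), the ETS-family partner Gabpb1 (0.69, SE 0.11) and the mitochondrial RNA polymerase Polrmt (0.53, SE 0.10). In vehicle against wild type muscle 4 were higher (28.6%, near the 25.7% of all genes) and 0 lower, with the elongation factor Tefm at 1.29 (SE 0.15). Cytosolic ribosomal protein genes had 0 higher and 22 lower of 76 after AP20187 (median -0.27) and 73 higher and 0 lower of 76 in vehicle against wild type muscle (median 0.90). Nuclear oxidative phosphorylation genes had 0 higher and 34 lower of 74 after AP20187 (median -0.33) and 38 higher and 0 lower in vehicle against wild type (median 0.33). Over all genes tested, 15.0% were lower after AP20187 and 25.7% higher in vehicle against wild type muscle.

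Some markers of other cells moved in the AP20187 comparison too. Of 9 macrophage and leucocyte markers, 8 were lower after AP20187 (median -0.96), and their mean log2 level ranged from 0.24 to 0.31 after AP20187, against 1.13 to 1.33 after vehicle and 1.31 to 1.39 in wild type muscle, with Ptprc not above background on both AP20187 arrays. Their part in the change of the members was not tested. In vehicle against wild type muscle 0 of these 9 were higher and 1 was lower. Markers of differentiating myogenic cells also moved, with 2 higher and 1 lower of 6 after AP20187 (from -0.52 to 3.44) and 3 higher and 2 lower of 6 in vehicle against wild type muscle (from -1.27 to 1.88). Their mean log2 level over the 4 measured everywhere was 4.56 on both AP20187 arrays, from 3.56 to 3.77 in vehicle muscle and from 3.78 to 3.83 in wild type muscle. Of 6 adipocyte markers, 0 were called after AP20187 (median -0.54) and 1 was higher in vehicle against wild type muscle (median 0.48). After AP20187, 0 of 6 endothelial and 0 of 2 erythroid markers were called, while 1 of 6 fibroblast and 1 of 9 fibre markers were lower. The part of these markers was not tested either.

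Promoters of the members were searched because most of them moved in the same direction. RefSeq promoter windows of GRCm38.p6, from 250 bases before to 50 bases after a start, were found for 69 of the 78 members (75 windows). NRF1, which binds promoters of many nuclear genes for mitochondrial proteins, was searched as GCGCA, then any base, then GCGC, ETS factors as CCGGAAG, SP1 as GGGCGG, the E-box bound by Myc and related factors as CACGTG, and the composite element of ATF4 and CEBP as TGATGNAAT, each on both strands. NRF1 letters were in 17.3% of the member windows, against 8.69% of 13736 windows of genes tested in muscle. ETS letters were in 34.7%, against 15.3%, SP1 letters in 52.0%, against 58.5%, and E-box letters in 9.33%, against 9.51%. Windows and not genes were counted, so the overlapping windows of Mrpl2, each with E-box letters, entered separately. The ATF4 and CEBP letters were in 0 of the 75, against 0.510%. By subunit, the NRF1 letters were in 20.8% of large and 11.1% of small subunit windows and the ETS letters in 31.2% and 40.7%. Windows of nuclear oxidative phosphorylation genes held NRF1 letters in 25.4% and ETS letters in 22.5%. Those of cytosolic ribosomal protein genes held them in 6.85% and 35.6%, so neither set of letters was particular to the members.

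The 250 bases before the start are printed for 4 members: Mrpl44, which rose most in vehicle muscle, Mrpl45, with 3 NRF1 matches of which 2 lie before the start, Mrpl18, which fell most after AP20187, and Mrps18c, whose AP20187 change differed between muscle and cells. They lie at chr1:79775768-79776017 (plus strand), chr11:97315466-97315715 (plus), chr17:12916092-12916341 (minus) and chr5:100798509-100798758 (plus) of GRCm38.p6. Capitals mark matches to the motifs above: NRF1 in Mrpl44 and Mrpl45, ETS and then SP1 (reverse strand) in Mrpl18, and E-box and then ETS (reverse strand) in Mrps18c. No match overlaps another in them. The third NRF1 match of Mrpl45 lies after the start, and an SP1 match of Mrps18c begins at the last printed base and runs past it, so neither is in capitals.
Mrpl44: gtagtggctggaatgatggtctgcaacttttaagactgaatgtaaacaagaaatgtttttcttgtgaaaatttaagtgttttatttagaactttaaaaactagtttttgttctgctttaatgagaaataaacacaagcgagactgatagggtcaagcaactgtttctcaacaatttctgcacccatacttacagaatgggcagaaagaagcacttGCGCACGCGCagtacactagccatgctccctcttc
Mrpl45: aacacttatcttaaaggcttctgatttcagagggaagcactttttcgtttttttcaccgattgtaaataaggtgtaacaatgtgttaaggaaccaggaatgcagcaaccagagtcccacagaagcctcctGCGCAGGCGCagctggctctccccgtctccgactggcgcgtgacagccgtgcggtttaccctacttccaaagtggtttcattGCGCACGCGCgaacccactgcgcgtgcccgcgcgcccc
Mrpl18: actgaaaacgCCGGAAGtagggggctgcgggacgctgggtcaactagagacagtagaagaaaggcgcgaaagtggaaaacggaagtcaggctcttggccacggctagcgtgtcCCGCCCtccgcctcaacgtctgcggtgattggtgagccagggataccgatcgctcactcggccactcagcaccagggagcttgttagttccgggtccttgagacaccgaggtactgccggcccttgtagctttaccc
Mrps18c: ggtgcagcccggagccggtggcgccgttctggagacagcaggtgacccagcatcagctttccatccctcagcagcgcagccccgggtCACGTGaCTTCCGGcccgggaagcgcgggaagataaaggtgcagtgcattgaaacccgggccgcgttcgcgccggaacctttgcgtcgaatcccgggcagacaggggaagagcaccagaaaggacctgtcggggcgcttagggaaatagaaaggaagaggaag

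Mrpl44 and Mrpl45 thus hold NRF1 letters, and Mrpl18 and Mrps18c hold ETS letters. In vehicle against wild type muscle their log2 changes were 1.07, 0.63, -0.07 and 0.57 in that order. These genes were picked for their changes or their matches, so they cannot show a link between letters and change, which was not tested. Of the other members named as higher in that comparison, Mrpl24, Mrps30, Mrpl47 and Mrps17 held neither NRF1 nor ETS letters, and Mrpl3 held ETS letters. The windows of Mrps11 and Mrpl46, a small and a large subunit gene on chromosome 7 named here after their values were seen, overlap and run in opposite directions. Mrps11 was higher by 0.68 and Mrpl46 by 0.87 in vehicle than in wild type muscle, while after AP20187 Mrps11 changed by -0.36 (limma adjusted p 0.0424) and Mrpl46 by -0.08 (limma adjusted p 0.599).

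In C2C12 cells AP20187 left the members without a called change. Of 69 members tested, 0 were higher and 0 lower than after vehicle (limma), and at an unadjusted p under 0.05, 0 were higher and 1 was lower. The share of all genes tested was computed at adjusted p only: 0.482% were called (0.316% higher and 0.167% lower). Of the 69, the groups did not overlap for 11 members higher and 15 lower after AP20187, overlapped for 37 and lacked a value for 6, where 16.6% of all genes were higher and 30.0% lower without overlap. The median log2 change was -0.05, against -0.06 over all genes tested, with a range from -0.32 to 0.26. It was -0.04 in the large and -0.08 in the small subunit. The smallest p belonged to Mrps25, at 3.94 and 3.95 after AP20187 and at 4.21 and 4.24 after vehicle (-0.28, SE 0.12, limma adjusted p 0.313). Mrpl32 (0.26, SE 0.12) and Mrpl22 (0.25, SE 0.12), both large subunit proteins, came next. The other probe of Mrpl22 read -0.12. Mrpl18 and Mrpl42, which fell most in muscle, had changes of -0.02 (SE 0.15) and 0.12 (SE 0.12) in cells.

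The change in C2C12 depended on how the arrays were scaled. Outlier marks covered 2.37% and 2.00% of gene spots on these arrays, against at most 0.376% on the other 8, and 93.3% and 91.5% of the marked spots lay above the 75th percentile. With quantile normalization 56 members were higher and 0 lower (median 0.68, all genes 0.38), where 40.2% of all genes were called higher. With the percentile over detected probes 49 were higher and 0 lower (median 0.44, all genes 0.41), where 50.9% of all genes were called higher. With the percentile over spots without an outlier mark 0 were called (median 0.17, all genes 0.15). Slide row as recorded and treatment coincide in C2C12 and cannot be told apart. Adipocyte markers moved in these cells: 4 of 5 tested were higher after AP20187 (median 3.45), with the mean log2 level of 6 markers from -0.46 to 0.05 after AP20187 and from -3.12 to -2.83 after vehicle, when none of the 6 was above background on both arrays. Their part was not tested.

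**Figure D4:**
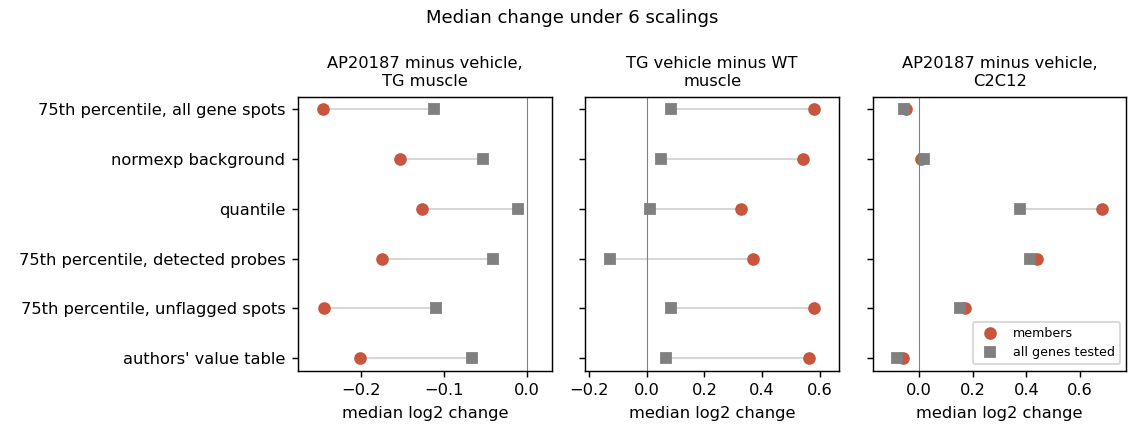
Median log2 change of the members (circles) and of all genes tested (squares) under 6 scalings, for 3 comparisons. In muscle the members lie below all genes after AP20187 and above them in vehicle against wild type under each scaling shown. In C2C12 quantile normalization moves all genes to 0.38 and the members further, to 0.68. The percentile over detected probes moves all genes to 0.41 and the members to 0.44.

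The AP20187 change in muscle was then set against that in C2C12 in a fit of all 10 arrays. Of 70 members tested, 0 had a higher and 3 a lower change in muscle, with 7.98% and 4.02% of all genes called in these directions (12.0% in all). They were Mrpl42 (difference -0.83, SE 0.14, limma adjusted p 0.00601), Mrpl18 (-1.09, SE 0.20, limma adjusted p 0.00736) and Mrps18c (-0.65, SE 0.16, limma adjusted p 0.0297). In cells Mrpl18 stood at 3.61 on both AP20187 arrays and at 3.85 and 3.43 after vehicle, so the vehicle arrays enclosed the treated ones. Mrpl42 stood at 3.05 and 2.96 after AP20187 and at 2.89 on both vehicle arrays, with no overlap. Mrps18c stood at 4.11 and 4.21 after AP20187 and at 4.14 and 4.01 after vehicle, with overlap. The calls of Mrpl42 and Mrpl18 held under all 20 alternatives, and that of Mrps18c under 12. At an unadjusted p under 0.05, 1 member had a higher and 16 a lower change in muscle, to which the shares at adjusted p do not apply. The median difference of the members was -0.21, against -0.06 over all genes tested. With 1 array left out it ran from -0.28 (without vehicle muscle replicate 1) to -0.11 (without vehicle muscle replicate 2).

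Muscle and cells were compared directly in the vehicle state. Vehicle muscle of the transgenic mice had 66 members higher and 3 lower than C2C12 after vehicle, of 77, where 40.2% of all genes were higher and 38.5% lower (78.7% in all). The median log2 difference of the members was 1.19, against 0.04 over all genes tested, 0.19 for 77 cytosolic ribosomal protein genes and 2.15 for 74 oxidative phosphorylation genes. Large and small subunit medians were 1.16 and 1.23. Markers of other cell types differed as well: 8 of 9 macrophage markers were higher in muscle (median 3.97), as were 6 of 6 endothelial (5.09), 6 of 6 adipocyte (6.51) and 2 of 2 erythroid markers (7.52), 4 of 6 fibroblast markers with 2 lower (2.14), and 9 of 9 fibre markers (6.54). Of 6 markers of differentiating myogenic cells 2 were higher and 4 lower (-3.32). Their part in the difference of the members was not tested. Mrpl55, specific to mitochondria, stood at 6.17 and 6.42 in muscle and at 3.38 and 3.66 in C2C12 (log2 difference 2.78, SE 0.12, 6.86-fold). Mrps28 (2.33, SE 0.10), Mrpl42 (2.23, SE 0.10), Mrpl37 (2.23, SE 0.10), Mrpl48 (1.83, SE 0.10) and Mrps30 (1.67, SE 0.09) were also among the members with the smallest p. Mrpl35, below background in C2C12, was at least 14.5-fold higher in muscle when its C2C12 level is set at the lowest signal well above background on each array or its own, whichever is higher (limma adjusted p 5.33e-08).

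Members lower in muscle were few. Mrpl15, of the bacterial L15 family, stood at -0.65 and -0.46 in vehicle muscle, against 3.30 and 3.65 in C2C12 after vehicle, or 16.4-fold lower in muscle (log2 difference -4.03, SE 0.16, limma adjusted p 5.82e-09). Its AP20187 muscle arrays read -1.19 and -0.96, its wild type arrays -0.71 and -0.70, and its measured C2C12 AP20187 array 3.54, so that all 6 muscle arrays were low. Only 1 probe measured Mrpl15. Mrps6, related to bacterial S6, stood at 3.97 and 4.14 in muscle and at 4.73 and 4.78 in C2C12 (log2 difference -0.70, SE 0.11). Mrpl49 was lower by its brighter probe (-0.39, SE 0.14) but not by its other probe (0.02).

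For the 20 members with 2 probes, both probes gave changes of the same sign for all 20 in vehicle against wild type muscle. They gave opposite signs for 2 members after AP20187 in muscle (Mrpl49 and Mrps25) and for 4 in AP20187 against wild type muscle (Mrpl4, Mrpl41, Mrpl50 and Mrps25). After AP20187 in C2C12 they did so for 8 (Mrpl10, Mrpl22, Mrpl43, Mrpl47, Mrps2, Mrps17, Mrps23 and Mrps33). Between muscle and C2C12 they did so for 3 (Mrpl41, Mrpl49 and Mrps25). Mrps25, called lower after AP20187 in muscle by its brighter probe (-0.37), read 0.42 on the other. Mrpl41, a mitochondria-specific large subunit protein, read 0.17 between muscle and C2C12 on the probe used and -2.13 on the other.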

How the data were processed

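RNA of 10 samples (150 ng each, per the labels) was measured on Agilent arrays in 1 colour. The authors deposited scanner files, in which background had already been subtracted from each spot's intensity by the scanner software, named in the file headers as Agilent Feature Extraction, version 10.7.1.1. They also deposited a table of log2 values. Its scale and direction match the scanner values (r of at least 0.999843 between array differences), its centring stays unknown, and its column medians ran from -0.57 to 0.80. From the scanner files, control spots were dropped, log2 intensity minus each array's 75th percentile over all gene spots was taken, outlier-flagged spots were removed and spots averaged by probe. RefSeq accessions gave 26056 of 55681 probes a symbol, by names of GRCm38.p6. The brightest probe stood for a gene, which was tested when both arrays of some group in the fit read well above background.

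Models were fitted with limma (3.58.1, R 4.3.3), using lmFit and eBayes with a trend, to the 6 muscle, the 4 C2C12 or all 10 arrays. Benjamini-Hochberg adjustment ran over all genes tested, with calls at 0.05. The fits were tested on simulated data. Members, lists and tests were chosen with earlier results of these data known. The genes named are up to 6 called members in each direction by smallest p (3 where none was called), 15 members fixed for every AP20187 comparison, members with disagreeing probes, and at most 4 genes of another list by smallest p. All 5 called regulators are also given. Replicate numbers did not pair the arrays (correlations of same-numbered deviations from -0.08 to 0.04). The number of arrays limits the precision. Alternatives covered background correction (normexp, offset 50, on the median signal), scaling, filters, probe choice, blocks and left-out arrays.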

Additional observations from a re-analysis of the deposited data

Results flagged for a closer look

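The AP20187 change differed between transgenic muscle and C2C12 by a direct test (limma, adjusted p under 0.05) for 3 of 70 members, all lower in muscle. That is 4.29% of the members, near the 4.02% of all genes called lower (12.0% called in all). For Mrpl18 the muscle change minus the C2C12 change was -1.09, with changes of -1.12 in muscle and -0.02 in cells. For Mrpl42 the difference was -0.83, with -0.71 in muscle and 0.12 in cells. For Mrps18c the difference was -0.65, with -0.56 in muscle and 0.09 in cells, and this call was lost under 8 of 20 alternatives.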

How the results depend on the processing

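The count of 29 members called after AP20187 in transgenic muscle was 10 with normexp background, 10 with quantile normalization (2 higher and 8 lower each), 18 with the percentile over probe means, 7 in the authors' value table, 16 with no filter on dim probes and 17 in the 4 transgenic arrays alone. With slide row as a block, which takes out vehicle replicate 2, the median change was -0.17. With 1 array left out the count moved as well, and the median change ran from -0.36 to -0.17. The median change stayed below 0 in each of these settings. For AP20187 against wild type muscle, 48 called members ranged from 30 to 50 with 1 array left out. In C2C12, 0 called members became 56 with quantile normalization, 49 with the percentile over detected probes and 1 with the mean over probes. With 1 array left out the median change there ran from -0.09 to 0.01. Under quantile normalization the C2C12 change turned positive for Mrpl11 (0.70), Mrpl41 (0.91), Mrpl45 (0.67), Mrpl58 (0.76), Mrps12 (0.82), Mrps18a (0.52), Mrps25 (0.51) and Mrps36 (0.61). With the percentile over detected probes it did so for Mrpl41 (0.40), Mrpl45 (0.41), Mrps12 (0.37), Mrps18a (0.35) and Mrps35 (0.36). The difference between muscle and C2C12, called for 3 members, was called for 5 with normexp background (1 higher and 4 lower), 53 with quantile normalization (27.4% of all genes), 48 with the percentile over detected probes (31.2% of all genes), 5 with outlier spots kept, 22 with the percentile over spots without an outlier flag and 10 over probe means, and ranged from 2 to 6 with 1 array left out. With a replicate block 5 were called there and 41 for AP20187 against vehicle in muscle, and the arrays of 1 number are not known to share anything else. The percentiles over spots without a flag and over probe means were chosen after seeing the data. The causes were not tested. Where no share of all genes stands beside a count, the count alone does not tell whether the members or genes at large lost or gained calls. The counts in vehicle against wild type muscle and in vehicle muscle against C2C12 stayed within 1.5 times of 61 and 69 under all alternatives run. Having 2 arrays a group limits all of these counts.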
